A study of Mus musculus with 18 samples.

Results

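The genes described here are 8 subunits of the neuronal nicotinic acetylcholine receptor: Chrna3, Chrna4, Chrna5, Chrna6, Chrna7, Chrnb2, Chrnb3 and Chrnb4. They were chosen by name, and every probe of the array whose accession maps to one of these symbols was taken. The array held 1 probe for each, so the group is 8 of the 20144 genes with a symbol on it, and all 8 passed the filter on dim probes.

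The RNA came from whole mouse retina 3 days after optic nerve crush, an injury that severs the axons of retinal ganglion cells behind the eye, or without crush. All mice carried floxed alleles of DLK (Map3k12, an axon injury kinase) and all received tamoxifen at 10 to 12 weeks of age. Cre-positive mice also carried Cre-ERT under the CAG promoter, which is active in many tissues and not only in ganglion cells, and their Cre-negative littermates did not. The residual DLK protein varied between Cre-positive animals, per the labels. The groups were Cre-negative uncrushed (4 arrays), Cre-negative crushed (3 arrays), Cre-positive uncrushed (5 arrays) and Cre-positive crushed (5 arrays). On each 2-colour array Cy5 marked the retinal RNA and Cy3 a universal mouse reference, and a level below is the log2 ratio of Cy5 to Cy3 unless it is called an intensity. The labels do not say that each array is a separate animal, so the p-values measure the spread between these samples. One further array has labels that disagree on crush and was kept out of all groups.

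Nicotinic receptors are pentameric cation channels opened by acetylcholine, built from alpha subunits alone or from alpha and beta subunits together. In the retina acetylcholine is released by starburst amacrine cells, and the receptors sit on ganglion, amacrine and bipolar cells. Ganglion cells also carry receptor protein along the optic nerve to their terminals in the brain, where receptors holding the alpha6 and beta3 subunits are a known feature of the retinal projection. Alpha6 forms the acetylcholine site together with a beta subunit, whereas beta3 and alpha5 are accessory subunits that need other subunits to form a channel. In the RefSeq annotation of assembly GRCm38.p6, Chrnb3 and Chrna6 are neighbours with 0 genes starting between them, and Chrna5, Chrna3 and Chrnb4 form a second such run.

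After crush in Cre-negative retinas 2 of the 8 subunits fell, Chrna6 to 38.5% and Chrnb3 to 47.4% of the uncrushed level, and the other 6 did not pass the test. Of all features 0.808% were called lower there. In Cre-positive retinas none of the 8 passed the test after crush, where 0.0868% of all features were called lower and 0.666% higher. Chrna6 fell less in Cre-positive than in Cre-negative retinas by a test of that difference itself. That call was lost in 5 of the 17 fits that left out an array and in some other settings. In crushed retinas both Chrna6 and Chrnb3 were higher with Cre than without it, as were 0.623% of all features. In uncrushed retinas no subunit differed detectably between genotypes, where 0.0118% of all features were called.

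Across the 17 arrays of the 4 groups, 68.0% to 75.5% of probes were well above background in Cy5, and log2 ratios of arrays of one group correlated at 0.982 to 0.996. The level of Map3k12 was 2.43 ± 0.16 (SD, n = 4) in Cre-negative uncrushed and 2.50 ± 0.16 (n = 3) in Cre-negative crushed retinas. It was 1.996 ± 0.165 (n = 5) in Cre-positive uncrushed and 2.03 ± 0.20 (n = 5) in Cre-positive crushed retinas. With Cre it was lower by 0.43 (SE 0.11) uncrushed and by 0.47 (SE 0.12) crushed. Neither passed after adjustment over all features (limma adjusted p = 0.88 and 0.0596), where 0.0118% and 1.18% of features were called. Each difference is several times its SE, so the adjusted p does not show that Map3k12 stayed level. The retina's defining markers were measured: all 10 photoreceptor, 10 bipolar and 10 amacrine markers and 17 of 18 ganglion cell markers passed the filter. Cre-positive uncrushed replicate 4 stood apart in pigment epithelium, lens and cornea markers, whose mean log2 ratio there was 2.04 against 0.72 for the median Cre-negative uncrushed array. Within each genotype crushed samples lay at even and uncrushed samples at odd positions of their slides, so crush and the kind of position cannot be told apart.

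Chrna6 encodes the alpha6 subunit and was read by probe A_55_P2041065. Its log2 ratio was 6.50, 6.31, 6.20 and 6.15 in the 4 Cre-negative uncrushed arrays. In the 3 Cre-negative crushed arrays it was 4.90, 5.12 and 4.71. The 2 groups lie more than a full log2 unit apart with nothing between them. In the 5 Cre-positive uncrushed arrays it was 6.37, 6.17, 6.47, 6.46 and 6.53, which overlaps the Cre-negative uncrushed range. In the 5 Cre-positive crushed arrays it was 5.97, 6.27, 5.54, 6.20 and 5.87. The Cre-positive crushed arrays thus lay above all 3 Cre-negative crushed arrays, and 2 of them, at 6.27 and 6.20, reached into the range of their own uncrushed group.

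Chrnb3 encodes the accessory beta3 subunit and was read by probe A_52_P358651. Its log2 ratio was 2.59, 2.92, 2.40 and 2.62 in Cre-negative uncrushed retinas and 1.88, 1.15 and 1.62 in Cre-negative crushed retinas, without overlap. In Cre-positive retinas it was 2.63, 2.61, 2.83, 2.47 and 2.69 uncrushed and 2.32, 2.23, 2.32, 2.50 and 2.24 crushed. Here the groups overlapped through a single crushed array at 2.50, and every Cre-positive crushed array lay above every Cre-negative crushed array. For both genes the order of the group means was Cre-positive uncrushed, Cre-negative uncrushed, Cre-positive crushed and Cre-negative crushed, and the first 2 of that order did not differ beyond their spread.

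**Figure D1:**
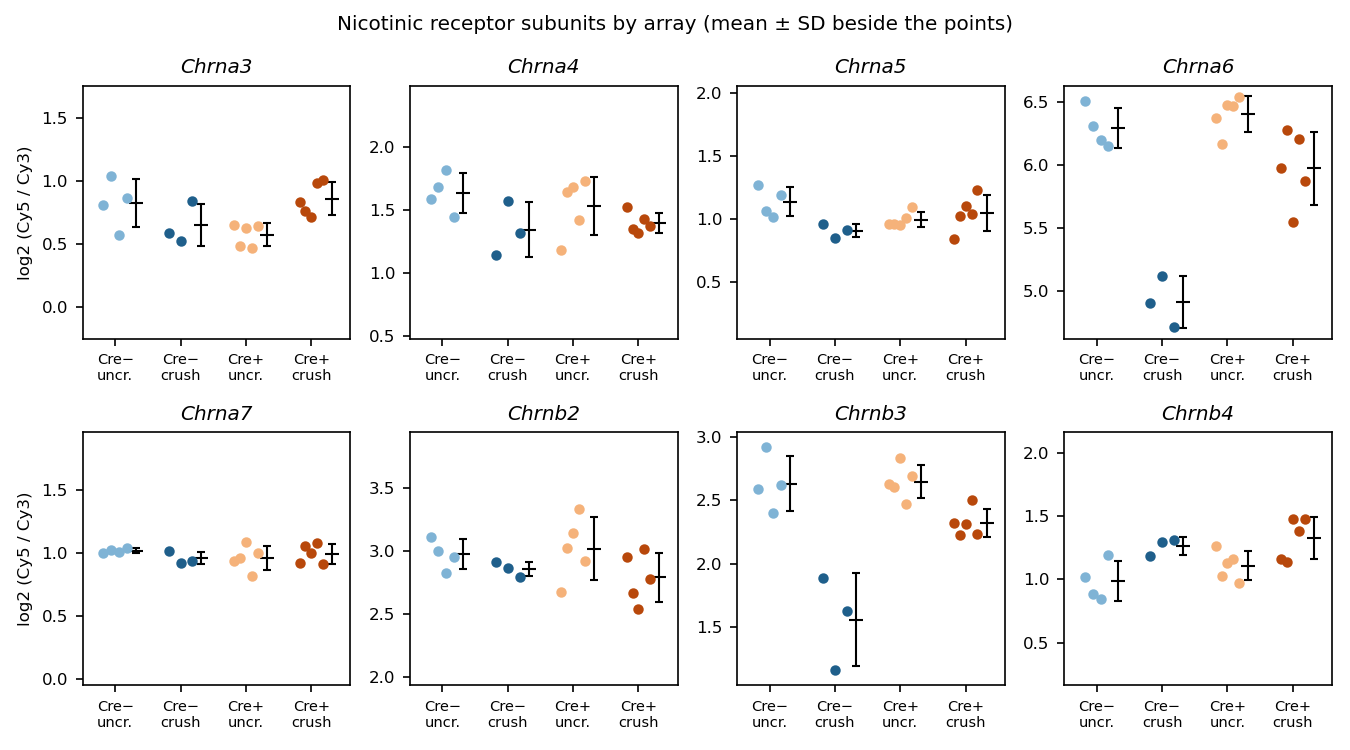
Log2 ratio of retina (Cy5) to reference (Cy3) for each of the 8 subunits, 1 point per array, in the 4 groups along the x axis, with the mean and SD drawn beside the points; every y axis spans the same log2 distance but is centred on its own gene. The 3 Cre-negative crushed arrays stand below all others for Chrna6 (4.71 to 5.12) and for Chrnb3 (1.15 to 1.88), while the groups of Chrna4, Chrna7 and Chrnb2 overlap.

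The fall of Chrna6 after crush in Cre-negative retinas was -1.38 on the log2 scale (SE 0.14, 95% interval -1.68 to -1.07, limma adjusted p = 9.66e-06). That of Chrnb3 was -1.08 (SE 0.14, interval -1.37 to -0.79, limma adjusted p = 0.000113). The size for Chrnb3 depended on the signals used: it was -1.61 with normexp offset 0 (limma adjusted p = 0.0113) and -2.01 with the scanner's processed ratios, where it was not called (limma adjusted p = 0.229). It was -0.90 and not called with the array of disputed label taken as uncrushed (limma adjusted p = 0.0522). Both main values are larger than the spread between replicates, whose SD within groups was 0.21 and 0.20 for the 2 genes. Counted from the most lowered, Chrna6 was number 8 and Chrnb3 number 15 of the 25359 features tested. The background is 0.808% of features called lower in this comparison, and 2 of the 8 subunits were. The median change over the 8 subunits was -0.20, against 0.0015 over all features.

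None of the 8 subunits was called in either direction after crush in Cre-positive retinas, where 0.0868% of all features were called lower and 0.666% higher; limma gave 5 of the 8 an unadjusted p under 0.05. Chrna6 changed by -0.43 (SE 0.12, interval -0.68 to -0.18, limma adjusted p = 0.134). Chrnb3 changed by -0.33 (SE 0.11, interval -0.57 to -0.09, limma adjusted p = 0.318). Both intervals lie below 0, so the adjusted p does not show that these genes stayed level. The median over the 8 subunits was -0.05, against 0.00029 over all features.

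The difference between the 2 crush responses, Cre-positive minus Cre-negative, was 0.95 for Chrna6 (SE 0.19, interval 0.55 to 1.34, limma adjusted p = 0.0244), which makes it 1 of 8 subunits called against a background of 0.134% of features called higher. For Chrnb3 the difference was 0.75 (SE 0.18, interval 0.37 to 1.13, limma adjusted p = 0.106), which did not pass. The call for Chrna6 depends on single arrays: its adjusted p was 0.0707 without Cre-negative uncrushed replicate 1, 0.0579 without Cre-negative uncrushed replicate 2, 0.0886 without Cre-negative crushed replicate 1, 0.113 without Cre-negative crushed replicate 3 and 0.0505 without Cre-positive crushed replicate 4, with a difference of 0.85 to 1.06 over all 17 arrays left out in turn. It was also lost without background subtraction (limma adjusted p = 0.115), with normexp offset 0 (0.471), with processed ratios (0.851) and with the disputed array as uncrushed (0.58). With the disputed array as uncrushed 0 of 25357 features were called in this comparison, so that loss is not particular to Chrna6. Of 25359 features, 109 were called without background subtraction, 77 with normexp offset 0 and 68 with processed ratios, against 106 in the main fit. In those settings Chrna6 lost its call while other features were called. Without Cre-negative crushed replicate 1 Chrnb3 passed instead, with a difference of 0.92 (limma adjusted p = 0.0209).

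Between genotypes after crush, with Cre compared to without, Chrna6 was higher by 1.06 (SE 0.14, limma adjusted p = 0.000176) and Chrnb3 by 0.77 (SE 0.13, limma adjusted p = 0.00416). Neither was called with normexp offset 0 (limma adjusted p = 0.0563 and 0.139) or with processed ratios (0.147 and 0.405), and Chrnb3 was not called with the disputed array as uncrushed (0.0847). Those are 2 of 8 subunits, where 0.623% of all features were called higher. In uncrushed retinas none of the 8 was called, against a background of 0.0118% of features called in either direction; limma gave Chrna3 an unadjusted p of 0.0126 and the other 7 over 0.05. There Chrna6 differed by 0.11 (interval -0.16 to 0.38) and Chrnb3 by 0.01 (interval -0.24 to 0.27), so a difference between genotypes as large as the one after crush lies outside both intervals. These comparisons share control arrays and are not independent of one another.

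Slide and position were read from the scanner output names of the arrays, and both genes kept their direction within slides. On slides 2, 3 and 5, which each held 1 crushed and 1 uncrushed Cre-negative array, Chrna6 changed by -1.60, -1.25 and -1.08 and Chrnb3 by -1.30, -0.73 and -1.25. On slides 1, 2, 3 and 4 the Cre-positive change of Chrna6 was -0.60, -0.50, -0.20 and -0.26, and that of Chrnb3 -0.24, -0.40, -0.29 and -0.47. The Cre-negative fall was the larger on each slide that held both genotypes crushed and uncrushed, slides 2 and 3. With slide as a fixed block the difference between the crush responses was 0.88 for Chrna6 (limma adjusted p = 0.0486) and 0.73 for Chrnb3 (limma adjusted p = 0.0434), so that both passed.

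The reference channel bears on these values. The reference signal of Chrna6 was dim, between 79 and 164 in intensity over a local background of 23 to 36, and that of Chrnb3 was above background on 1 of 17 arrays, so that part of the spread of each ratio is spread of its denominator. The retinal Cy5 intensity of Chrna6 itself was 16230 to 19103 in Cre-negative uncrushed and 5114 to 6100 in Cre-negative crushed retinas. In Cre-positive retinas it was 17181 to 18101 uncrushed and 12651 to 14985 crushed, so on this scale the Cre-positive groups did not overlap either. Without Cre the Cy5 intensity of Chrnb3 ran from 625 to 847 uncrushed and from 304.5 to 381 crushed, and with Cre from 646.5 to 760.5 uncrushed and from 541.5 to 651 crushed, where 2 crushed arrays reached into the uncrushed range. With quantile-normalised Cy5 spot medians alone, a setting chosen after seeing the data, the SD within groups was 0.07 for Chrna6 in place of 0.21. For Chrnb3 it was 0.12 in place of 0.20.

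A separate setting used the scanner's processed Cy5 signals alone, and there more subunits passed. From the processed Cy5 signals, Chrna6 was lower by 0.42 on the log2 scale after crush in Cre-positive retinas (change -0.42, SE 0.05, limma adjusted p = 0.000444), and its crush responses differed by 1.03 (SE 0.07, limma adjusted p = 2.1e-06). Those of Chrnb3 differed by 0.74 (SE 0.12, limma adjusted p = 0.00524). On this scale the fall of Chrna6 in Cre-positive retinas is called and smaller than in Cre-negative retinas, and on the ratio scale it is not called.

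**Figure D2:**
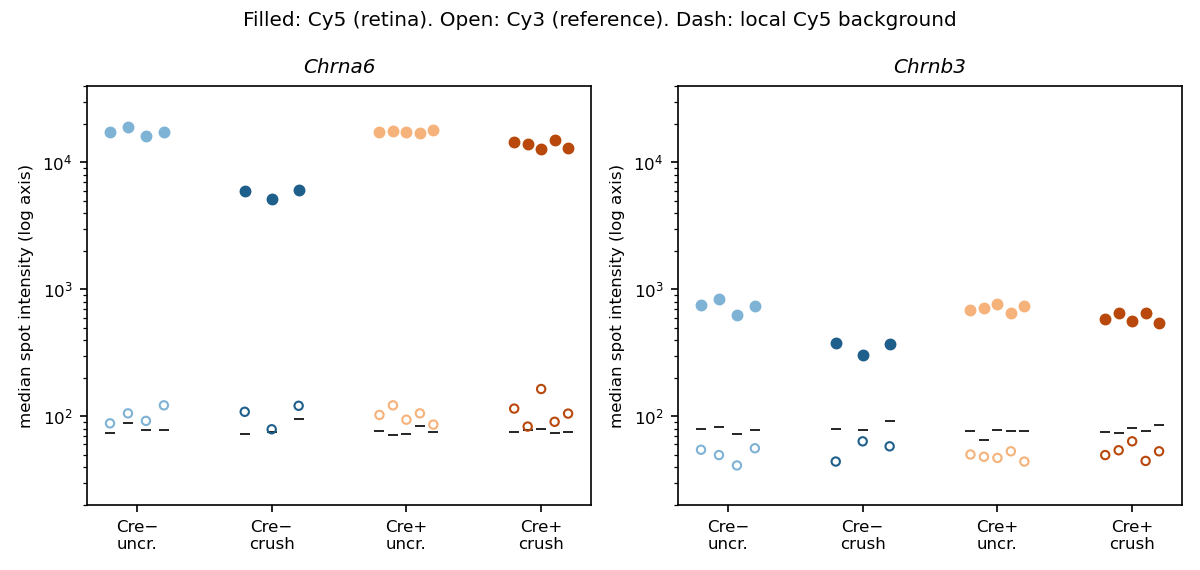
Median spot intensity on a log axis for Chrna6 and Chrnb3 on each array, by group, with Cy5 (retina) as filled points, Cy3 (reference) as open points and the local Cy5 background as dashes. The retinal signal of Chrna6 separates the 4 groups apart from the 2 uncrushed ones, and the open points lie near 100 for Chrna6 and near 50 for Chrnb3.

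The remaining subunits form pairs and runs by role. Chrna4 (alpha4) and Chrnb2 (beta2) build the most abundant heteromeric receptor of the brain, and beta2 is also a partner of alpha6. Chrna4 was 1.63 ± 0.16 (SD, n = 4) in Cre-negative uncrushed and 1.35 ± 0.21 (n = 3) in Cre-negative crushed retinas, with overlapping arrays and a change of -0.29 (SE 0.12, limma adjusted p = 0.309). In Cre-positive retinas it was 1.53 ± 0.23 (n = 5) uncrushed and 1.40 ± 0.08 (n = 5) crushed, a change of -0.13 (SE 0.10). The reference signal of Chrna4 was above background on 2 of 17 arrays, which limits its ratios. Chrnb2 was 2.97 ± 0.12 (n = 4) and 2.86 ± 0.06 (n = 3) in Cre-negative, and 3.02 ± 0.25 (n = 5) and 2.79 ± 0.20 (n = 5) in Cre-positive retinas, uncrushed and crushed in turn. Its changes of -0.12 (SE 0.13) and -0.23 (SE 0.11) did not pass (limma adjusted p = 0.776 and 0.516). The intervals for Chrnb2 reach down to -0.39 without and -0.45 with Cre, so a fall as large as that of Chrna6 in Cre-negative retinas lies outside them.

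Chrna3 (alpha3), Chrna5 (accessory alpha5) and Chrnb4 (beta4) form the gene cluster behind the ganglionic type of receptor. Chrna3 was 0.81, 1.04, 0.57 and 0.86 in Cre-negative uncrushed and 0.59, 0.52 and 0.84 in Cre-negative crushed retinas, which overlap. In Cre-positive retinas it was 0.65, 0.48, 0.63, 0.46 and 0.64 uncrushed and 0.83, 0.76, 0.71, 0.98 and 1.00 crushed, so every crushed array lay above every uncrushed one. The changes were -0.17 (SE 0.10, limma adjusted p = 0.509) and 0.29 (SE 0.08, limma adjusted p = 0.172), and their difference was 0.46 (SE 0.13, limma adjusted p = 0.251). None of these passed on the ratio scale. From Cy5 spot medians alone, a setting chosen after seeing the data, the Cre-positive change was 0.33 (limma adjusted p = 0.0453). That was the only 1 of 25 alternatives that called it. The Cre-positive crushed arrays lie inside the range of the Cre-negative uncrushed ones. Within slides 1 to 4 the Cre-positive change of Chrna3 was 0.30, 0.36, 0.35 and 0.12. The Cy5 signal of this gene was dim, 122.5 to 192 in intensity over a local background of 67.5 to 85, so small changes are hard to resolve.

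Chrna5 was 1.27, 1.07, 1.02 and 1.19 in Cre-negative uncrushed and 0.96, 0.85 and 0.91 in Cre-negative crushed retinas. These groups did not overlap, but the change of -0.23 (SE 0.08) did not pass over all features (limma adjusted p = 0.186). In Cre-positive retinas Chrna5 was 0.997 ± 0.062 (SD, n = 5) uncrushed and 1.05 ± 0.14 (n = 5) crushed, with a change of 0.05 (SE 0.07, limma adjusted p = 0.838).

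Chrnb4 was the only subunit with a positive change in both genotypes. It was 1.02, 0.89, 0.85 and 1.20 in Cre-negative uncrushed and 1.18, 1.30 and 1.31 in Cre-negative crushed retinas, overlapping through a single array on each side. The changes were 0.27 (SE 0.10, limma adjusted p = 0.213) in Cre-negative and 0.22 (SE 0.08, limma adjusted p = 0.382) in Cre-positive retinas, with a difference of -0.06 (SE 0.13) between them. Neither passed the test on the ratio scale. From Cy5 spot medians alone, a setting chosen after seeing the data, the Cre-negative change was 0.33 and passed (limma adjusted p = 0.0452). That was the only 1 of 24 alternatives that called it.

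Chrna7 encodes alpha7, which can form a channel of alpha subunits alone. Its probe is printed in 10 spots per array, of which 8 to 10 were used, and its array means ran from 0.82 to 1.09 over the 17 arrays. The changes after crush were -0.06 (SE 0.06, interval -0.19 to 0.07) and 0.03 (SE 0.05, interval -0.08 to 0.14) in Cre-negative and Cre-positive retinas. Its SEs were the smallest of the 8 subunits, and the interval in each genotype leaves out changes of the log2 ratio beyond 0.19 in size. The pooled SD of the ratio within groups was 0.07. The Cy5 signal was dim, 165 to 214 in intensity over a local background of 72 to 85. Its reference was above background on 0 of 17 arrays, so the narrow interval holds for the ratio and not for the RNA level.

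The fall of Chrna6 and Chrnb3 came with a fall of ganglion cell markers. Of 17 ganglion cell markers tested, 11 fell after crush without Cre and 5 with Cre, where 0.808% and 0.0868% of all features did. In the difference between the crush responses 6 were higher, against 0.134% of all features. With Cre in crushed retinas 10 were higher, against 0.623% of all features. Averaged over the 17 markers, the log2 ratio ran from 2.84 to 2.95 in the arrays without Cre and crush, and from 2.11 to 2.17 with crush alone. With Cre it ran from 3.01 to 3.09 before and from 2.72 to 2.85 after crush. In whole retina, fewer ganglion cells and less RNA per ganglion cell cannot be told apart. Their part in the fall of the 2 subunits was not tested.

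The transcription factor genes Pou4f1 and Pou4f2 fell in Cre-negative retinas by 1.04 and 1.77 on the log2 scale (limma adjusted p = 1.06e-05 and 4.2e-07), and the RNA-binding protein gene Rbpms fell by 0.62 (limma adjusted p = 0.000436). The surface protein gene Thy1 fell by 0.44 (limma adjusted p = 0.000194) and the neurofilament gene Nefl by 0.60 (limma adjusted p = 1.47e-05). The Cre-negative changes of Chrna6 and Chrnb3 lie inside this range. For the 11 markers called lower, the Cre-positive change was 12.7% to 62.0% of the Cre-negative one, with a median of 32.9%. For Chrna6 it was 31.2% and for Chrnb3 30.4%, close to the middle of the markers. These percentages are ratios of 2 measured changes and carry the errors of both. Markers and subunits alike were taken because their Cre-negative change was called, and that change is the denominator. The choice itself favours low percentages, so their likeness between subunits and markers is a description and not a test.

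**Figure D3:**
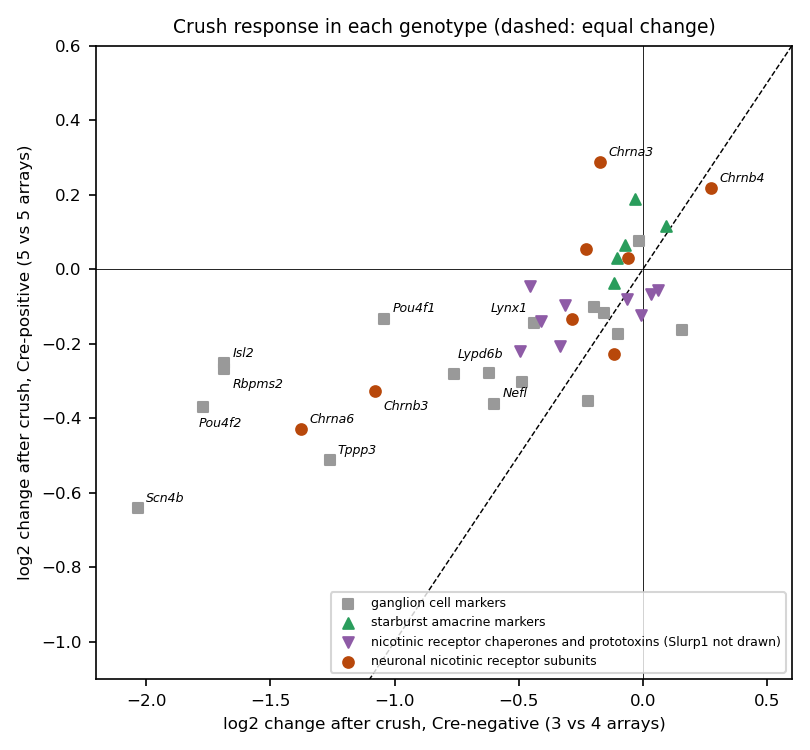
Log2 change after crush in Cre-negative (x axis) and Cre-positive retinas (y axis) for the 8 subunits, the ganglion cell and starburst amacrine markers and the receptor chaperones and prototoxins, 1 point per gene; the dashed line marks equal change. Chrna6 (-1.38, -0.43) and Chrnb3 (-1.08, -0.33) lie among the ganglion cell markers above the line, and the other 6 subunits lie within 0.29 of 0 on both axes; Slurp1 is not drawn because its SE was 0.67 and 0.56.

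Markers of other cell types moved too. Of 9 microglia and macrophage markers 3 were called higher after crush in Cre-negative retinas, where 1.34% of all features were. In Cre-positive retinas 7 were called higher, where 0.666% of all features were. Their mean log2 ratio ran from -0.03 to -0.01 without Cre or crush and from 0.34 to 0.40 with crush alone. With Cre it ran from -0.02 to 0.17 in uncrushed and from 0.37 to 0.93 in crushed samples. Of 10 amacrine markers 1 fell in Cre-negative retinas, where 0.808% of all features did. It was Calb2, which ganglion cells also express. Of 8 Mueller glia markers 0 were called after crush without Cre, where 2.15% of all features were. With Cre 2 were called, 1 of them higher and 1 lower, against 0.753% of all features. None of 5 starburst amacrine, 10 bipolar or 10 photoreceptor markers was called after crush in either genotype (limma), and at an unadjusted p under 0.05 there were 0 starburst, 0 bipolar and, in each genotype, 2 photoreceptor markers. The part of these markers in the levels of the subunits was not tested.

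Genes for making, moving and breaking down acetylcholine were read as RNA, and limma called 0 of 7 in any of the 5 comparisons. Of all features 0.0118% to 2.15% were called in either direction in these comparisons, so a count of 0 among 7 is near the background. Before adjustment 2 of the 35 limma tests had a p under 0.05. RNA of whole retina does not measure the supply of acetylcholine itself. Chat, which makes acetylcholine, changed after crush by -0.12 (SE 0.10) in Cre-negative and -0.04 (SE 0.08) in Cre-positive retinas. Slc18a3, which loads it into vesicles, changed by -0.03 (SE 0.17) and 0.19 (SE 0.14). Slc5a7, which takes up choline, changed by -0.07 (SE 0.13) and 0.06 (SE 0.11). Ache, which breaks acetylcholine down, changed by -0.14 (SE 0.15) and 0.09 (SE 0.12). The 95% interval of each of these 4 genes leaves out a fall as large as that of Chrna6 in Cre-negative retinas.

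Receptor assembly and surface delivery depend on chaperones, and prototoxins of the Ly6 family bind receptors and tune them. Of 10 such genes tested 2 fell after crush in Cre-negative retinas, both of them prototoxins, where 0.808% of all features fell. Lynx1 fell by 0.41 on the log2 scale (limma adjusted p = 0.00135) and Lypd6b fell by 0.49 (limma adjusted p = 0.000361), and for each the 3 crushed arrays lay below the 4 uncrushed ones. Both were higher with Cre in crushed retinas, where 0.623% of all features were. Lynx1 was higher by 0.43 (limma adjusted p = 0.000857) and Lypd6b by 0.41 (limma adjusted p = 0.00268). In Cre-positive retinas they changed by -0.14 and -0.22 after crush (limma adjusted p = 0.423 and 0.105), and the difference between the crush responses did not pass for either (limma adjusted p = 0.332 and 0.373). The 0.41 and 0.49 are smaller changes than those of Chrna6 and Chrnb3.

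Of the other nicotinic subunits, which build muscle and hair cell receptors among others, 6 of 8 passed the filter on dim probes and 0 of 6 were called in any comparison (limma; 0 of the 30 tests had an unadjusted p under 0.05). Their median change after crush was -0.01 without and -0.02 with Cre. Of the muscarinic receptors, the G protein-coupled receptors for acetylcholine, 4 of 5 passed the filter and 0 of 4 were called (limma; 2 of the 20 tests had an unadjusted p under 0.05). Their median change was -0.10 without and -0.06 with Cre. For both lists the background is 0.0118% to 2.15% of all features called in either direction over the 5 comparisons.

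The genes most like each subunit were sought by Pearson's r of log2 ratios over the 17 arrays, among 14559 genes, as a description; all values of an array share its library and normalisation. For Chrna6 the 5 highest were Fgf12 (0.969), Nat8l (0.955), Fkbp1b (0.943), Kcnd2 (0.942) and Tppp3 (0.940). For Chrnb3 they were BC030500 (0.940), Aifm3 (0.935), Trarg1 (0.918), Rbpms2 (0.917) and Trim37 (0.915). Tppp3 and Rbpms2 belong to the list of ganglion cell markers. Among the genes found for Chrna6, Fgf12 and Nat8l changed after crush by -0.62 and -0.41 in Cre-negative and by -0.21 and -0.11 in Cre-positive retinas. Fkbp1b and Kcnd2 changed by -1.34 and -1.23 in Cre-negative and by -0.58 and -0.32 in Cre-positive retinas. All were picked for likeness over these same arrays, so an order of groups shared with Chrna6 follows from the choice.

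For the other subunits the best r was lower than for Chrna6, at 0.906 for Chrnb2 with Bckdha and 0.905 for Chrnb4 with Pcdhb20. Next came Chrna3 with Grm7 (0.869), Chrna4 with Sst (0.864), Chrna7 with Hnrnpl (0.822) and Chrna5 with Cbln4 (0.776). For Chrnb4 the first 5 included Cx3cr1, one of the microglia markers, at 0.877. Between Chrna6 and Chrnb3 themselves the r of log2 ratios was 0.850 over the 17 arrays and -0.07 for the deviations from group means. The 2 neighbouring genes thus moved together between groups. Within groups the ratios carry the spread of a dim reference, with SDs of 0.21 and 0.20 against 0.07 and 0.12 for Cy5 spot medians alone. The -0.07 therefore does not show whether their retinal levels are related within groups.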

How the data were processed

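The deposited files are the scanner output of 18 Agilent arrays made with Feature Extraction 10.7.3.1, per the file headers, and give a median spot and local background intensity in each channel. The deposited value table of the authors holds log2 ratios of Cy5 to Cy3, with normalisation unstated in the sources used here. Per the submitters' processing notes limma was used. Here limma 3.58.1 (R 4.3.3) corrected background by normexp (offset 50), normalised by loess within arrays and averaged the spots of a probe. The probe with the highest mean intensity stood for a gene. Features needed Cy5 well above background on at least 3 arrays. A mean per group was fitted to 17 arrays, and p-values (two-sided) were adjusted by Benjamini-Hochberg over 25359 features, with a threshold of 0.05. The code was tested on simulated data. Alternatives changed background, normalisation, channel, filter, probes, slide block, weights and arrays. The members and gene lists were chosen with earlier results of these data known. All 8 members, the cholinergic genes called in any comparison, 4 cholinergic genes and 5 ganglion cell markers were to be named, with 5 alike genes per member; other names were chosen after their values were seen. The number of arrays limits precision.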

Additional observations from a re-analysis of the deposited data

Results flagged for a closer look

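The crush response of Chrna6 differed between the genotypes. Its log2 change was -1.38 without and -0.43 with Cre, and the difference of 0.95 passed the test of the difference itself (limma adjusted p = 0.0244). The call was lost in 5 of the 17 fits that left out an array, without background subtraction (limma adjusted p = 0.115), with normexp offset 0 (0.471), with processed ratios (0.851) and with the array of disputed label as uncrushed (0.58). In that last setting 0 of 25357 features were called in this comparison. Without background subtraction 109 of 25359 features were called, with normexp offset 0 77 and with processed ratios 68, against 106 in the main fit. No array stood apart in Dixon's test for any of the 8 subunits in the groups of 4 or 5 arrays, over 24 groups tested.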

How the results depend on the processing

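No called direction turned in any of the 34 alternatives, and the fall of Chrna6 in Cre-negative retinas was called in all 24 that bear on it (-1.48 to -1.16), and that of Chrnb3 in 22 of 24 (-2.01 to -0.88). In brackets below is the share of all features called in either direction. Members called there numbered 1 with processed signals (1.13%) and 1 with the array of disputed label as uncrushed (0.288%). They numbered 3 with Cy5 spot medians alone (1.92%), where Chrnb4 was added. With an array left out 2 to 2 were called (1.3% to 1.98%), against 2.15% of features in the main fit. In Cre-positive retinas 1 was called with the processed Cy5 signal alone (0.808%). Cy5 spot medians alone, a setting chosen after seeing the data, gave 2 (0.714%). With an array left out 0 to 0 were called (0.434% to 0.907%), against 0.753% in the main fit. In the difference between the crush responses 0 were called without background subtraction (0.43%), with normexp offset 0 (0.304%) and with processed signals (0.268%). With the disputed array as uncrushed 0 members and 0% of features were called. Members numbered 2 with the processed Cy5 signal alone (0.45%), with Cy5 spot medians alone (0.422%) and with slide as a fixed block (0.398%). With an array left out 0 to 1 were called (0.319% to 0.477%), against 0.418% in the main fit. With Cre in crushed retinas 0 were called with normexp offset 0 (0.797%) and with processed signals (1.16%). Members numbered 1 with the disputed array as uncrushed (0.454%). They numbered 3 with Cy5 spot medians alone (1.15%), where Chrna3 was added (0.36, limma adjusted p = 0.0494). With an array left out 2 to 2 were called (0.659% to 1.17%), against 1.18% in the main fit. In uncrushed retinas the count stayed 0 (0% to 0.0118%). The cause of these changes was not tested. The labels give the arrays no replicate numbers, so no pairing by number was made; slide was the block used. The dim reference signal limits the ratios of Chrna3, Chrna5 and Chrna7, for which it was above background on 0 arrays. It also limits those of Chrnb3 and Chrna4, for which it was above background on 1 and 2 of 17 arrays.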

Other observations

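The array whose labels disagree on crush, a Cre-negative retina, had a Chrna6 level of 5.19, below the Cre-negative uncrushed range of 6.15 to 6.50 and just above the Cre-negative crushed range of 4.71 to 5.12. Its Chrna6 Cy5 intensity was 6563. Chrnb3 was 1.72 there, inside the crushed range of 1.15 to 1.88 and below the uncrushed range of 2.40 to 2.92. Chrna3 was 0.60, Chrna4 1.58, Chrna5 1.04, Chrna7 0.99, Chrnb2 2.69 and Chrnb4 1.03. Chrnb2 lay below both Cre-negative groups. Chrna4, Chrna5 and Chrnb4 lay inside the uncrushed and outside the crushed range, Chrna4 only just. Chrna7 lay inside the crushed range and below the uncrushed one, and Chrna3 lay inside both. The array sat at position 4 of its slide, an even position like those of the crushed samples.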
